A study of Mus musculus with 10 samples.

Results

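The voltage-gated calcium channel genes described here encode the auxiliary alpha2delta subunits (Cacna2d1 to Cacna2d4) and beta subunits (Cacnb1 to Cacnb4). The members are the genes with these symbols, 8 of the 54838 Ensembl genes counted in the series. All 8 passed the filter for expressed genes, as did 16806 genes in all. The filter asked for more than 1 CPM (counts scaled to library size) in at least 2 libraries. CPM levels of genes given below also include edgeR's TMM factors. The libraries hold ribosome-bound RNA purified by TRAP, in which EGFP-tagged ribosomal protein L10a is precipitated with anti-EGFP beads from cells that have expressed Cre. All mice had the genotype MC-TRAP (Drd2-Cre;Eef1a1LSL.eGFPL10a/+) on the strain C57BL/6. They were male and about 10 weeks old. Hippocampi were divided by length into a shorter Dorsal and a longer Ventral part, tissue of 5 mice was pooled per library, and 5 Dorsal and 5 Ventral libraries were sequenced. By the study's methods the same mice supplied both Dorsal and Ventral tissue. Which Dorsal and Ventral pools share mice is not stated, so the main tests treat the libraries as independent. The tagged population is enriched for hilar mossy cells (MCs), the glutamatergic neurons of the dentate hilus. The Drd2-Cre driver also labels GABAergic interneurons, which the study describes as sparse, and neurons of the ventral subiculum, part of which was removed during dissection. Among its limitations the study says that a substantial subset of such interneurons can be captured.

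Voltage-gated calcium channels are built around a pore-forming alpha1 subunit. Beta subunits bind the cytoplasmic linker of high-voltage-activated alpha1 subunits, help bring the channel to the membrane and set the voltage dependence of gating. Alpha2delta subunits are largely extracellular, raise the number of channels at the surface and at release sites, and include the targets of the gabapentinoid drugs. Each family has paralogs that can stand in for one another in a channel complex, so the balance among paralogs was compared between dorsal and ventral MC-enriched populations.

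The 2 families are easily told apart by short reads, which matters because a paralog comparison fails if reads are split between copies. No stretch of 50 bases is shared between the annotated transcripts of any pair of members. To show how they differ in a similar stretch, a 60-base coding window within a single exon was taken for each family from the GENCODE transcripts on GRCm38. It was chosen to keep the largest number of differences between a reference gene and any other member as small as possible. Single pairs may be more alike elsewhere. For the alpha2delta family the reference is Cacna2d1, and capitals mark bases that differ from it.
Cacna2d1: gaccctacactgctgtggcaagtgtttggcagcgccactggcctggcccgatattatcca
Cacna2d2: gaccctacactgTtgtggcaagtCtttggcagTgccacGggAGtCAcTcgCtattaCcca
Cacna2d3: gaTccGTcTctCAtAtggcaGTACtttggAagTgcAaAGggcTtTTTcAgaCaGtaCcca
Cacna2d4: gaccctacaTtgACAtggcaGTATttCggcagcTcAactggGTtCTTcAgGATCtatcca
Cacna2d2 differed from Cacna2d1 at 11 of the 60 bases, Cacna2d4 at 21 and Cacna2d3 at 24. These windows lie in exon 7 of Cacna2d1 (chr5:16246737-16246796, plus strand), exon 7 of Cacna2d2 (chr9:107512072-107512131, plus), exon 6 of Cacna2d3 (chr14:29351813-29351872, minus) and exon 6 of Cacna2d4 (chr6:119244270-119244329, plus). For the beta family the reference is Cacnb4, and the window encodes part of the SH3 domain that these subunits share.
Cacnb1: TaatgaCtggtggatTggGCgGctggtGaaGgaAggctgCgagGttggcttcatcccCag
Cacnb2: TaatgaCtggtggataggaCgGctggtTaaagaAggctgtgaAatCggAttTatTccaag
Cacnb3: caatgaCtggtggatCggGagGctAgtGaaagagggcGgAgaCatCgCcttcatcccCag
Cacnb4: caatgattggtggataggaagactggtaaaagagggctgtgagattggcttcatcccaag
Cacnb2 differed from Cacnb4 at 11 bases, and Cacnb1 and Cacnb3 each at 12. The windows lie in exon 5 of Cacnb1 (chr11:98012254-98012313, minus), exon 5 of Cacnb2 (chr2:14960663-14960722, plus), exon 4 of Cacnb3 (chr15:98640347-98640406, plus) and exon 5 of Cacnb4 (chr2:52469540-52469599, minus). Overlap with genes outside the families was larger. Cacnb4 shares 16% of its exonic bases with A430018G15Rik and Cacnb2 shares 7.32% with 3 noncoding genes or pseudogenes. Since the sources do not say whether counting used strand, reads in these stretches cannot be assigned with certainty. For the other 6 members the overlap was at most 1.77%.

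Counts on genes ranged from 11138676 to 20594364 per library, so that 3 counts, taken as the detection floor, correspond to 0.146 to 0.269 CPM (counting error only). The Dorsal and Ventral libraries also differed outside these genes. Read pairs on no annotated gene made up 27.0 ± 5.09% (SD, n = 5) on the Dorsal side but 14.4 ± 3.0% (SD, n = 5) on the Ventral side, and mRNAs of the mitochondrial genome took 2962 ± 315 and 789 ± 306 CPM. Neither range overlapped. Of 7 MC markers, 2 were called higher in Dorsal and 2 in Ventral libraries. Calb2, the calretinin gene that marks ventral MCs, had 65.0 ± 9.30 CPM dorsally and 615 ± 94.4 CPM ventrally. The 8 interneuron markers summed to 3262 to 4354 CPM (Dorsal) and 3943 to 5181 CPM (Ventral), with 3 called higher in Ventral. All 8 were lower in Dorsal libraries, 5 of them with an adjusted p below 0.05 (edgeR). The 7 MC markers summed to 1924 to 2124 CPM (Dorsal) and 1947 to 2243 CPM (Ventral). Of these, Gria2 was at 1141 ± 97.9 and 649 ± 72.8 CPM, and Slc17a7 at 212 ± 46.0 and 175 ± 28.7 CPM. Gad2 was at 2848 ± 452 and 3168 ± 406 CPM. Levels of different genes, or sums over different lists, do not compare the amounts of cell types. How much of the RNA came from each cell type was not tested. From its histology the study describes the tagged population as heavily enriched for MCs. It also reports that canonical interneuron markers had comparable levels in both parts. The 5 oligodendrocyte markers summed to 2100 to 2480 CPM (Dorsal) and 724 to 1376 CPM (Ventral), with 3 called higher in Dorsal. Among the other marker lists, 3 of 5 astrocyte and 1 of 5 pyramidal genes were called higher in Dorsal libraries. For microglia the count was 1 of 5, for granule cells 1 of 5 in each direction, and for endothelium 0 of 4 (edgeR, with 0 at an unadjusted p below 0.05 as well). Among all tested genes, 15.7% were called higher in Dorsal and 9.85% in Ventral libraries. The astrocyte sums overlapped, at 275 to 360 CPM (Dorsal) and 237 to 386 CPM (Ventral). The astrocyte marker Aldoc was lower in Dorsal libraries (log2 fold change -0.56, adjusted p = 0.00532, edgeR) but not called. No summed list was at 0 in any library. What part these differences have in the results below was not tested, and in bulk RNA fewer cells of a type and less RNA per cell cannot be told apart.

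Among the alpha2delta genes, Cacna2d2 was higher in dorsal MC-enriched populations, by 1.62-fold, Cacna2d1 was higher by a smaller amount that depended on a correction for base composition and length, and Cacna2d3 was lower, with an adjusted p close to the threshold. Cacna2d4, which is best known from retinal photoreceptors, was the least abundant member, with at most 6 counts in 4 of 5 Dorsal libraries and in Ventral library 1, and 22 to 105 counts in the others. Of the 8 members, 1 was called Dorsal-enriched (Cacna2d2) and 0 Ventral-enriched. A call needs both an adjusted p below 0.05 by edgeR's quasi-likelihood test and a ratio of mean CPM (each plus 1) that exceeds 0.58 on the log2 scale in either direction. DESeq2's Wald test gave the same counts, and 2 members lower in Dorsal libraries (Cacna2d3 and Cacna2d4) had an unadjusted p below 0.05 by edgeR. By the edgeR call with both thresholds, 15.7% of all tested genes were Dorsal-enriched and 9.85% Ventral-enriched. DESeq2's Wald test called 2559 and 1458 genes. The share of all genes with an unadjusted p below 0.05 is not given here, so the 2 members are not set against a background. By the adjusted p alone, 4 members passed (Cacna2d1, Cacna2d2, Cacna2d3 and Cacnb2), against 33.6% of all genes. Of these, Cacna2d1 and Cacna2d3 passed narrowly and often did not pass when a single library was left out. The tool's log2 fold changes below are Dorsal minus Ventral with their SE, and the median over all tested genes was -0.004.

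Cacna2d2 (ENSMUSG00000010066, chr9:107399612-107529343) encodes a gabapentinoid-binding subunit, whose loss causes ataxia and seizures in mice. Its level was 79.7, 90.6, 81.4, 86.7 and 83.0 CPM in Dorsal libraries 1 to 5 and 66.8, 65.8, 38.1, 44.3 and 45.5 CPM in Ventral libraries 1 to 5. Every Dorsal library was above every Ventral library, a separation that 18.2% of all tested genes showed in one direction or the other. The Dorsal libraries lay close together, whereas the Ventral libraries were spread over a wider range. The log2 fold change was 0.70 ± 0.15 (adjusted p = 0.00392, edgeR quasi-likelihood test). Leaving out any 1 library gave 0.61 to 0.81, and the call held in each of the 20 alternative fits.

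Cacna2d1 (ENSMUSG00000040118, chr5:15934691-16374511) encodes the other gabapentinoid-binding subunit and a receptor for thrombospondins. It was at 215, 201, 170, 201 and 195 CPM in the Dorsal series and at 197, 116, 159, 152 and 133 CPM in the Ventral series. Ventral library 1 reached the Dorsal range while the other 4 stayed below it. The log2 fold change was 0.37 ± 0.13 (adjusted p = 0.0417, edgeR), short of the fold threshold. The adjusted p missed 0.05 in 7 of the 10 fits without a single library, reaching 0.0988 without Ventral library 5 (edgeR). With offsets that remove each library's smooth trend over GC content and exonic length, it became -0.07 (adjusted p = 0.647, edgeR), where the median of all genes was -0.16.

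Cacna2d3 (ENSMUSG00000021991, chr14:28904943-29721864), a subunit of central neurons involved in nociception and hearing, lay the other way. Its level was 44.7, 39.0, 43.7, 42.1 and 50.6 CPM in Dorsal replicates, against 60.2, 41.9, 59.2, 57.0 and 68.6 CPM in Ventral replicates. Ventral library 2 fell inside the Dorsal range and the remaining Ventral libraries were above it. The log2 fold change of -0.40 ± 0.14 passed the adjusted p (0.0384, edgeR) but not the fold threshold, and the GC and length offsets left it at -0.49 (adjusted p = 0.0096, edgeR). The adjusted p missed 0.05 in 8 of the 10 fits without a single library, reaching 0.118 without Ventral library 5 (edgeR). It also missed it with DESeq2's size factors (0.0523), total counts (0.0537), no filter (0.0980), protein-coding genes alone (0.0514) and the dispersions of edgeR 3 (0.0548, all edgeR).

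Cacna2d4 (ENSMUSG00000041460, chr6:119236526-119352407) had 1, 44, 3, 6 and 1 counts in Dorsal and 2, 22, 78, 48 and 105 counts in Ventral libraries. These correspond to 0.0784 to 2.85 CPM and 0.111 to 6.57 CPM. The groups overlapped through Dorsal library 2, which was high, and Ventral library 1, which was low. The log2 fold change was -2.05 ± 0.81 (adjusted p = 0.0615, edgeR) and did not pass. Besides Dorsal library 2, only Ventral libraries exceeded 1 CPM, so the gene passed the filter mainly through the group in which it was higher. Its value was -3.96 without Dorsal library 2 and -2.41 without Ventral library 1. It was called in both cases, but without Dorsal library 2 no Dorsal library exceeds the filter, and the call is not read as support for a difference.

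**Figure D1:**
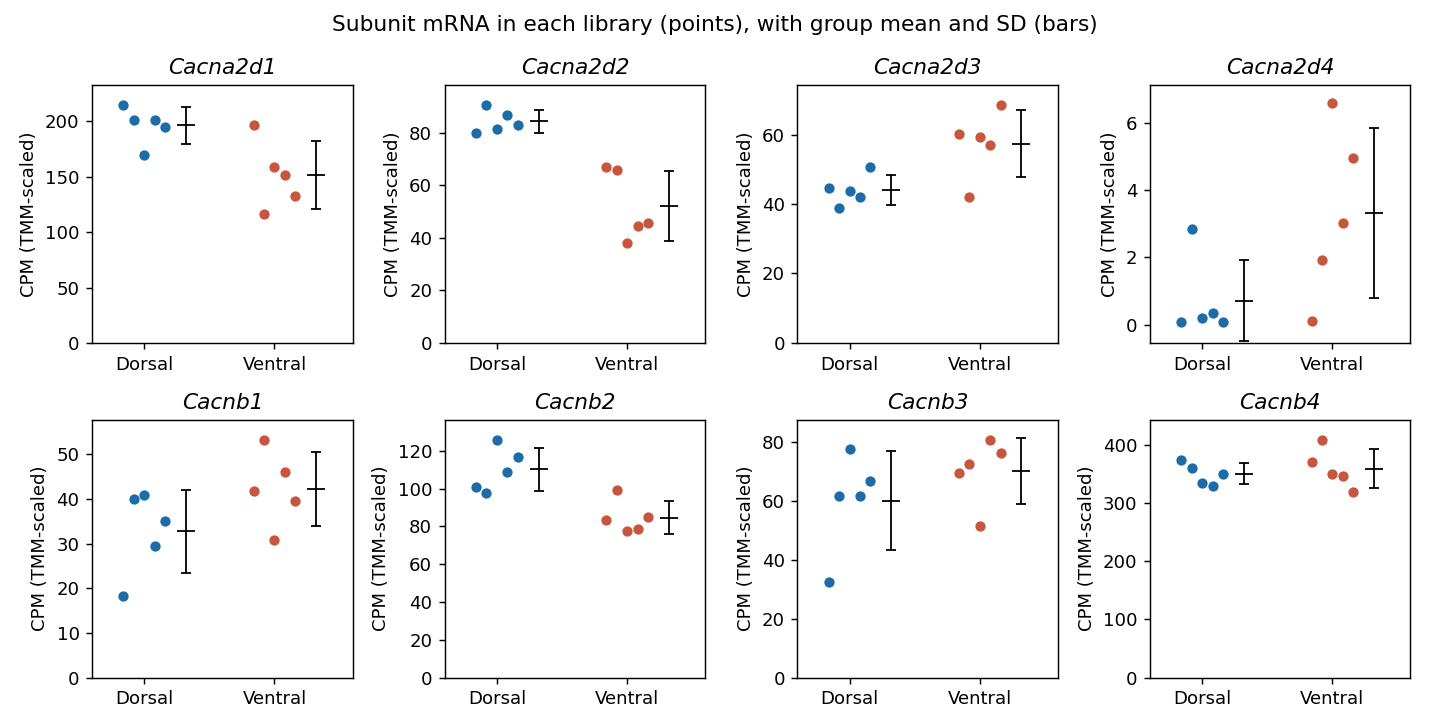
CPM (TMM-scaled, linear axis) of each member in the 5 Dorsal (blue) and 5 Ventral (red) libraries, ordered by replicate number, with the group mean and SD in black. Only Cacna2d2 has groups that do not overlap (79.7 to 90.6 against 38.1 to 66.8 CPM), and the lower end of the Dorsal SD bar of Cacna2d4 lies below 0 because 1 library is high.

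The beta genes differed less. Cacnb4, the most abundant member per length, did not differ detectably as counted, Cacnb2 was higher in Dorsal libraries as counted but not after correction for GC content and length, and Cacnb1 and Cacnb3 did not pass the test. Neither edgeR nor DESeq2 called any of the 4 in either direction, and Cacnb2 alone had an adjusted or unadjusted p below 0.05 (edgeR).

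Cacnb2 (ENSMUSG00000057914, chr2:14603088-14987908), the main beta subunit of heart and one of several in brain, was at 101, 97.9, 126, 109 and 117 CPM in Dorsal replicates and at 83.2, 99.4, 77.4, 78.4 and 84.8 CPM in Ventral replicates. Ventral library 2 was the single library of its group to reach the Dorsal range. The log2 fold change was 0.38 ± 0.11 (adjusted p = 0.0175, edgeR). Without the filter the adjusted p was 0.0515 (edgeR). The fold change turned to -0.29 with the GC and length offsets (adjusted p = 0.111, edgeR), against the median of -0.16 over all genes.

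Cacnb4 (ENSMUSG00000017412, chr2:52428320-52676831), mutated in the lethargic mouse, was at 374, 360, 335, 330 and 350 CPM in Dorsal replicates and at 370, 409, 350, 347 and 319 CPM in Ventral replicates. The Dorsal range lay inside the Ventral range. The log2 fold change was -0.04 ± 0.09 (adjusted p = 0.773, edgeR), with an approximate interval of -0.21 to 0.14 (95%, normal quantile). With the offsets it was -0.46 (adjusted p = 0.00441, edgeR), below the fold threshold.

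Cacnb3 (ENSMUSG00000003352, chr15:98630840-98644529), a subunit of neuronal N-type and L-type channels, was at 32.4, 61.8, 77.7, 61.6 and 66.7 CPM in Dorsal replicates and at 69.6, 72.4, 51.4, 80.8 and 76.2 CPM in Ventral replicates. Cacnb1 (ENSMUSG00000020882, chr11:98001508-98023034), the beta subunit of the skeletal muscle channel and also present in brain, was at 18.2, 40.1, 40.9, 29.4 and 35.1 CPM in Dorsal replicates and at 41.8, 53.3, 30.9, 46.0 and 39.5 CPM in Ventral replicates. For both genes Dorsal library 1 was the lowest of all and Ventral library 3 the lowest of its group. Their log2 fold changes were -0.22 ± 0.19 for Cacnb3 (adjusted p = 0.387, edgeR) and -0.35 ± 0.20 for Cacnb1 (adjusted p = 0.180, edgeR). The intervals, -0.58 to 0.15 and -0.74 to 0.03, cover 0 in both cases.

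The trend removed by the offsets was fitted over all genes and differed strongly between members, being highest for the long, AT-rich ones. Cacnb2 has a GC content of 39.0%, lower than all but 6.36% of the genes fitted, and its trend amounted to 0.68 on the log2 scale (Dorsal minus Ventral). For Cacna2d1 (GC content 40.7%) the trend was 0.45 and for Cacnb4 (40.5%) it was 0.42. The GC-rich members Cacna2d2 (55.8%), Cacnb1 (59.7%) and Cacnb3 (61.3%) had trends of -0.14, -0.15 and -0.15. Cacna2d3 (49.1%) and Cacna2d4 (52.6%) lay between, at 0.10 and -0.03. The offsets moved the median log2 fold change of all genes to -0.16 and the proportion of Dorsal-enriched genes among all calls from 61.4% to 42.1%, so that values with offsets are to be read against that median. Relative to it, Cacna2d2 (0.84) stayed higher and Cacna2d3 (-0.49) lower, Cacnb4 (-0.46) moved below it, Cacnb2 (-0.29) changed from above to below it, and Cacna2d1 (-0.07) remained slightly above it.

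**Figure D2:**
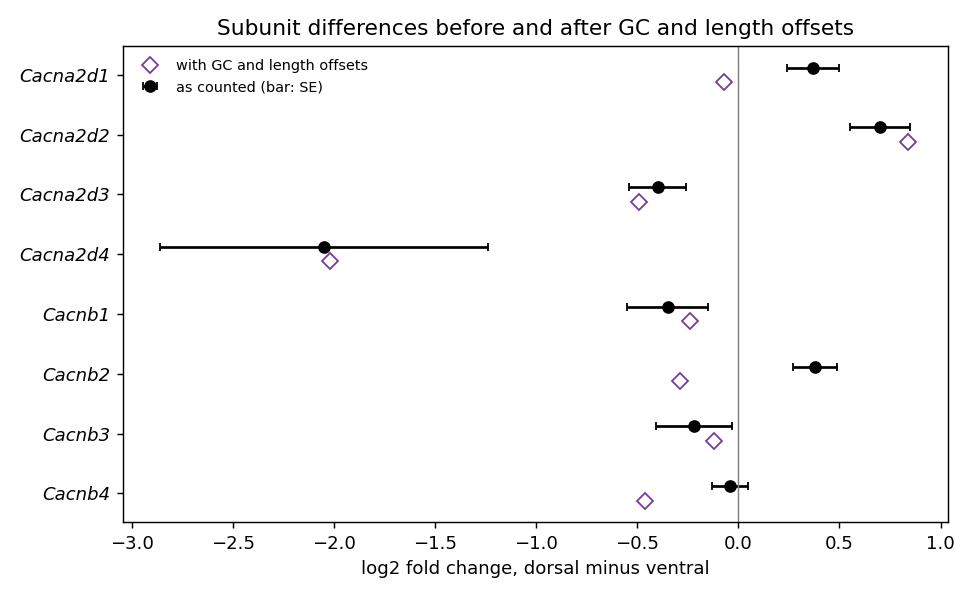
Log2 fold change (Dorsal minus Ventral) of the 8 members from the counts as deposited (black, with SE, n = 5 per group) and with offsets for GC content and exonic length (open diamonds, drawn without error). Cacna2d2 and Cacna2d3 keep their direction, from 0.70 to 0.84 and from -0.40 to -0.49, whereas Cacna2d1, Cacnb2 and Cacnb4 move to -0.07, -0.29 and -0.46, where the median over all genes is -0.16.

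Levels were compared between genes per kilobase of exonic sequence (RPKM). In the alpha2delta family Cacna2d1 was highest, with 15.8 ± 1.32 RPKM in Dorsal and 12.2 ± 2.48 RPKM in Ventral libraries (SD, n = 5 each), and exceeded Cacna2d2 in all 10 libraries. Cacna2d2 had 10.6 ± 0.549 and 6.56 ± 1.67 RPKM, and Cacna2d3 5.05 ± 0.489 and 6.58 ± 1.11 RPKM. Cacna2d2 was thus above Cacna2d3 in all 5 Dorsal libraries but in only 2 of 5 Ventral libraries, where the 2 genes did not differ beyond their spread. Cacna2d4 was lowest throughout, at no more than 0.694 RPKM. In the beta family Cacnb4 led with 39.0 ± 2.0 and 40.1 ± 3.72 RPKM, followed by Cacnb3 with 15.0 ± 4.19 and 17.5 ± 2.81 RPKM. Cacnb1 (7.22 ± 2.06 and 9.35 ± 1.82 RPKM) and Cacnb2 (8.34 ± 0.871 and 6.40 ± 0.666 RPKM) came last, and which of them was higher varied between libraries. This order holds for the exonic length of all transcripts together. Per kilobase of the longest coding transcript, Cacnb2 was above Cacnb1 in all 10 libraries. It was above Cacnb3 in all 5 Dorsal libraries (25.7 against 11.8 RPKM in Dorsal library 1). Cacna2d3 clearly exceeded Cacna2d2 in 4 of 5 Ventral libraries, and both were at 11.3 RPKM in Ventral library 2. Cacna2d3 also exceeded Cacna2d1 in Ventral library 5. The summed level of the alpha2delta genes was 31.5 ± 1.46 RPKM in Dorsal and 25.7 ± 3.26 RPKM in Ventral libraries, with overlapping ranges (29.0 to 32.5 and 22.6 to 31.2 RPKM). For the beta genes the sums were 69.6 ± 5.41 and 73.3 ± 6.82 RPKM.

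Paralog balance was measured as the share of each gene in the length-scaled counts of its family, which does not depend on how libraries are scaled to each other. The 8 shares were compared by two-sided exact permutation tests, whose p-values are unadjusted and cannot go below 0.00794 with 5 against 5 libraries. Shares within a family sum to 100%, so that they are not independent. How often the shares of other gene families separate the groups is not given here. The alpha2delta family moved from Cacna2d3 towards Cacna2d2 on the dorsal side. Cacna2d3 made up 15.8, 13.8, 17.3, 15.1 and 18.2% of the family in Dorsal and 22.1, 21.3, 27.1, 26.5 and 31.7% in Ventral libraries. The groups did not overlap, and the difference was -9.70 percentage points (exact p = 0.00794). Cacna2d2 made up 30.9, 35.2, 35.4, 34.1 and 32.7% in Dorsal and 26.9, 36.6, 19.1, 22.6 and 23.1% in Ventral libraries. Ventral library 2 had the highest share of all, while the other 4 were below every Dorsal library. The difference was 7.98 points (exact p = 0.0476). With any 1 library left out it stayed at 6.34 to 10.7 points, but its exact p missed 0.05 for 9 of the 10 libraries. Without Ventral library 2 it was 10.7 points (exact p = 0.00794). With the GC and length offsets it was 15.0 points (exact p = 0.00794), and that of Cacna2d3 was -8.26 points (exact p = 0.00794). Cacna2d1 contributed 50.1 ± 2.20% and 47.2 ± 4.67% (difference 2.91 points, exact p = 0.286), and Cacna2d4 0.236 ± 0.390% and 1.42 ± 1.06% (exact p = 0.0714). The Cacna2d1 difference depended on the processing. It was 5.30 points with coding length (exact p = 0.0397) and -5.69 points with the offsets (exact p = 0.00794).

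In the beta family the share of Cacnb2 was 12.4, 10.3, 12.6, 12.3 and 12.3% in Dorsal and 8.48, 9.05, 9.07, 7.90 and 9.19% in Ventral libraries. As counted the groups did not overlap, with a difference of 3.26 points (exact p = 0.00794). After the GC and length offsets the difference was 0.354 points (exact p = 0.540). Cacnb4 made up 56.5 ± 6.81% and 54.8 ± 3.78% (exact p = 0.683), Cacnb3 21.3 ± 4.80% and 23.8 ± 3.21% (exact p = 0.389), and Cacnb1 10.2 ± 2.32% and 12.7 ± 1.37% (exact p = 0.0635). The offsets turned the difference of Cacnb4 from 1.71 to -4.44 points (exact p = 0.0159) and that of Cacnb3 from -2.56 to 3.38 points (exact p = 0.0238). Dorsal library 1 stood out with 67.9% Cacnb4, 13.1% Cacnb3 and 6.54% Cacnb1. The size of a share depends on the length used. Divided by the longest coding transcript in place of all exonic bases, Cacnb2 made up 27.4% of the Dorsal and 20.8% of the Ventral beta counts, and Cacna2d3 22.5% and 34.2% of the alpha2delta counts, but the direction of both differences was the same.

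**Figure D3:**
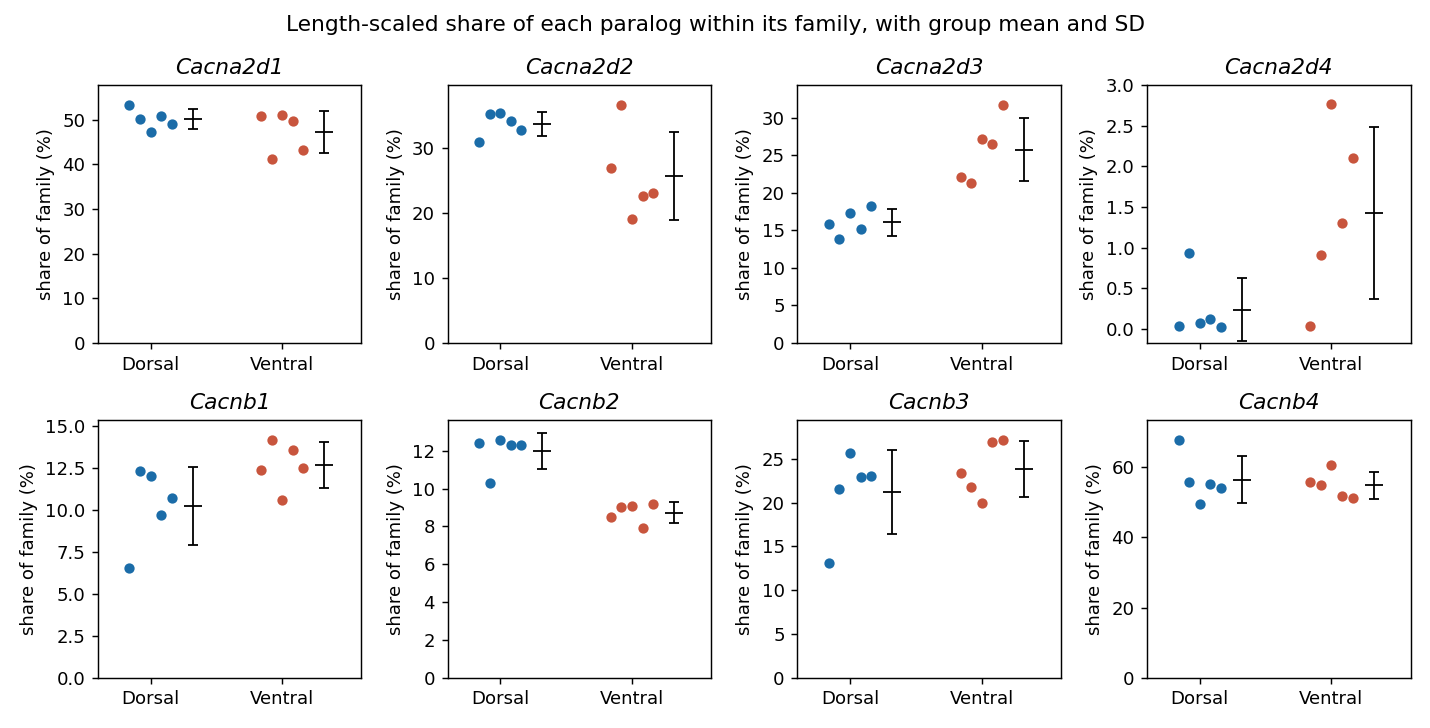
Share (%) of each gene in the length-scaled counts of its family in the 5 Dorsal (blue) and 5 Ventral (red) libraries, with group mean and SD. The groups do not overlap for Cacna2d3 (13.8 to 18.2% against 21.3 to 31.7%) and for Cacnb2 (10.3 to 12.6% against 7.90 to 9.19%). The latter difference is the one that disappears with the GC and length offsets.

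Ratios of counts between pairs of paralogs within each library need no gene length. They rearrange the same counts as the shares and fold changes, so that they are not separate support. Of 9 pairs compared (Cacna2d4 was left out for its low counts), 5 had an exact p of 0.0159 or less (two-sided, unadjusted), and 4 of these had groups that did not overlap. Among single genes, 18.2% of all tested ones had groups that did not overlap. The share among pairs of other genes is not given here, so these counts are not read as particular to the families. The ratio of Cacna2d2 to Cacna2d3 was 1.78, 2.32, 1.86, 2.06 and 1.64 in Dorsal and 1.11, 1.57, 0.644, 0.777 and 0.663 in Ventral libraries. Cacna2d2 had the larger count in every Dorsal library and the smaller one in 3 of 5 Ventral libraries. The geometric means, 1.92 and 0.896, differed by 2.14-fold (log2 difference 1.10, exact p = 0.00794), and with the offsets the log2 difference was 1.34 (exact p = 0.00794). The ratio of Cacna2d1 to Cacna2d3 was 3.85 to 5.16 in Dorsal and 1.94 to 3.28 in Ventral libraries (log2 difference 0.77, exact p = 0.00794), and 0.41 with the offsets (exact p = 0.0159). Cacna2d1 to Cacna2d2 ranged from 2.09 to 2.69 in Dorsal and from 1.76 to 4.17 in Ventral libraries (log2 difference -0.33, exact p = 0.167). Without Ventral library 2 this difference was -0.52 (exact p = 0.00794), and with the offsets -0.93 (exact p = 0.00794).

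Among the beta pairs, the ratio of Cacnb2 to Cacnb3 was 3.12, 1.58, 1.62, 1.77 and 1.76 in Dorsal and 1.20, 1.37, 1.51, 0.970 and 1.11 in Ventral libraries (log2 difference 0.65, exact p = 0.00794). Cacnb2 to Cacnb4 was 0.270 to 0.376 in Dorsal and 0.221 to 0.266 in Ventral libraries (log2 difference 0.42, exact p = 0.00794). Cacnb1 to Cacnb2 overlapped by a narrow margin (0.180 to 0.409 and 0.399 to 0.587, log2 difference -0.79, exact p = 0.0159). Each of these ratios holds Cacnb2, and none kept an exact p below 0.05 with the offsets. The log2 differences were then -0.18 for Cacnb2 to Cacnb3 (exact p = 0.0952), 0.16 for Cacnb2 to Cacnb4 (exact p = 0.190) and 0.04 for Cacnb1 to Cacnb2 (exact p = 0.865). The 3 beta pairs without Cacnb2 had exact p-values of 0.159 to 0.484 as counted. With the offsets, Cacnb1 to Cacnb4 turned from -0.37 to 0.20 (exact p = 0.0317) and Cacnb3 to Cacnb4 from -0.23 to 0.34 (exact p = 0.0159). The ratio of Cacnb1 to Cacnb3, both GC-rich, was little affected (log2 difference -0.14 with and without offsets, exact p = 0.246 as counted).

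**Figure D4:**
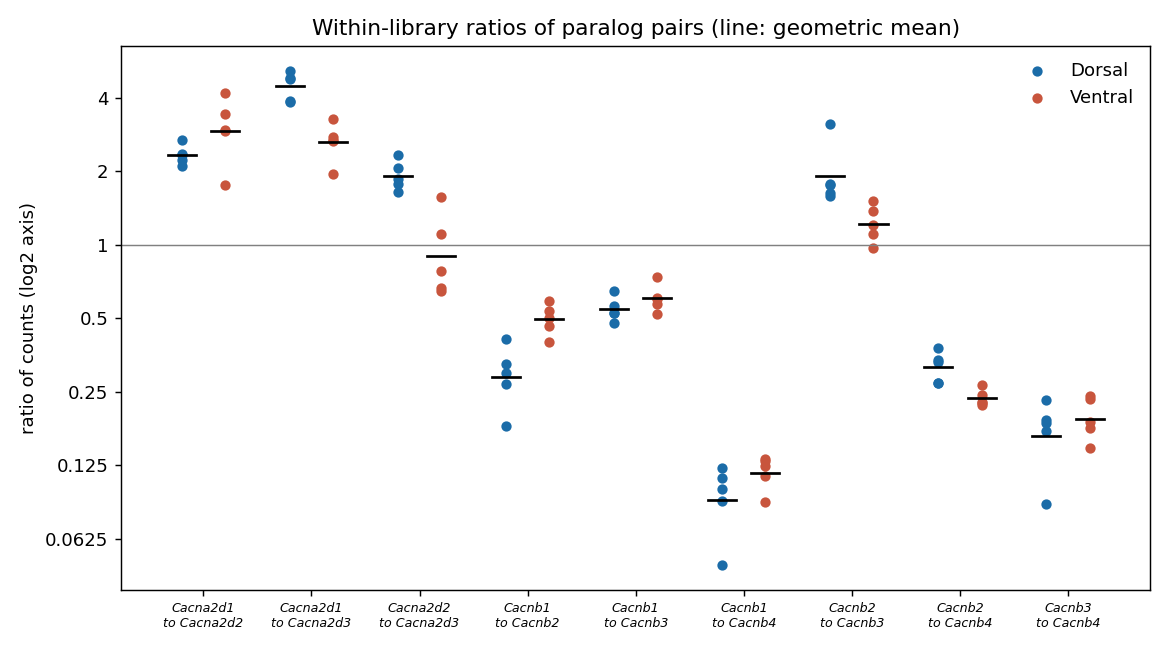
Ratio of counts for 9 pairs of paralogs (log2 axis) in the Dorsal (blue) and Ventral (red) libraries, with the geometric mean of each group as a line. The ratio of Cacna2d2 to Cacna2d3 falls from 1.64 to 2.32 in Dorsal libraries to 0.644 to 1.57 in Ventral libraries, on either side of 1.

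The subunits' partners were described from 4 lists with the same call, which 15.7% of all tested genes passed on the Dorsal side and 9.85% on the Ventral side. In lists this short, a count of 1 is not read as a departure from these shares. Of 10 pore-forming alpha1 genes, 8 were tested, 3 passing on the Dorsal side and 1 on the Ventral side. Their median log2 fold change was 0.45, against -0.004 over all tested genes. Cacna1e, the R-type channel and the alpha1 gene with the highest CPM, averaged 420 ± 17.0 CPM dorsally and 192 ± 15.6 CPM ventrally (log2 fold change 1.13 ± 0.09, adjusted p = 3.91e-06, edgeR). Cacna1a, the P/Q-type channel, was at 43.6 ± 5.34 and 19.2 ± 3.76 CPM (1.17 ± 0.16), and Cacna1d, an L-type channel, at 22.1 ± 3.26 and 9.34 ± 1.53 CPM (1.21 ± 0.18). The alpha1 gene called in the other direction was Cacna1i, a T-type channel (9.29 ± 2.55 and 15.2 ± 3.29 CPM, -0.71 ± 0.23, adjusted p = 0.027, edgeR), a type that does not need a beta subunit. It was not called with the GC and length offsets or without any 1 of 4 libraries (Dorsal 2 or 5, Ventral 4 or 5).

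Of 8 gamma genes, 7 were tested and 3 were called Dorsal-enriched, with a median of 0.97. Most products of this family act as auxiliary subunits of AMPA receptors rather than of calcium channels. Cacng5 was at 20.6 ± 3.60 CPM dorsally and 6.50 ± 1.97 CPM ventrally (1.70 ± 0.21), Cacng4 at 29.9 ± 3.11 and 13.1 ± 6.39 CPM (1.22 ± 0.23), and Cacng8 at 18.0 ± 8.58 and 9.25 ± 2.66 CPM (0.97 ± 0.31). Cacng8 was the one whose groups overlapped. Of 7 genes whose products bind beta subunits, 5 were tested and 1 was called. This was Rem2, a small GTPase that inhibits calcium channels, at 6.87 ± 1.98 and 2.68 ± 0.373 CPM (1.32 ± 0.30, adjusted p = 0.00487, edgeR). The list's median was 0.14. Of 7 genes encoding alpha2delta ligands or relatives, 5 were tested and 1 was called, with a median of 0.61. The called gene was Cachd1, an alpha2delta-like protein, at 68.8 ± 10.1 CPM dorsally and 23.3 ± 3.57 CPM ventrally (1.57 ± 0.15, adjusted p = 1.63e-05, edgeR). Its log2 fold change was thus larger than that of any of the 4 alpha2delta genes that was higher in Dorsal libraries.

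**Figure D5:**
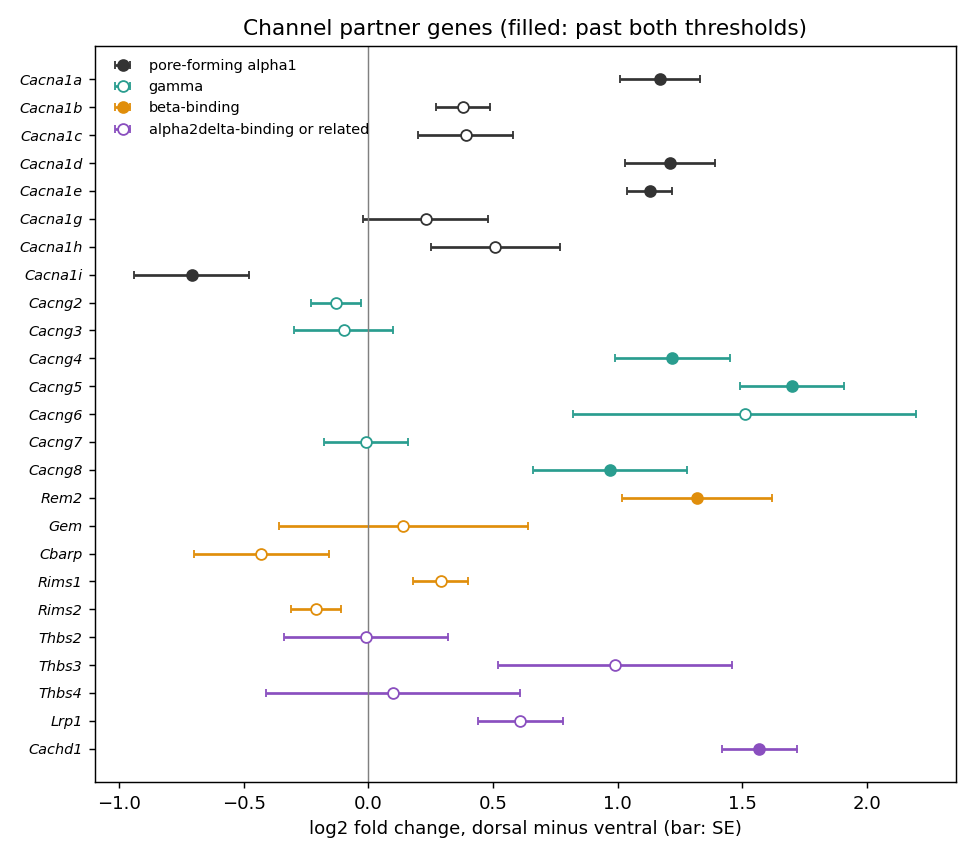
Log2 fold change (Dorsal minus Ventral) with SE of the 25 tested partner genes, coloured by list, from edgeR with n = 5 per group. Filled points pass both thresholds: 8 lie on the Dorsal side, led by Cacng5 (1.70) and Cachd1 (1.57), and Cacna1i (-0.71) lies on the Ventral side. Among all tested genes, 15.7% pass on the Dorsal side and 9.85% on the Ventral side.

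To describe which genes varied with the members from library to library, deviations of log2(CPM + 1) from the group means were compared with those of 13548 other protein-coding genes over the 10 libraries by Pearson's r. The most alike gene was Eme2 for Cacna2d2 (r = 0.966), Ppm1k for Cacna2d1 (0.966), Map3k19 for Cacna2d3 (0.921) and Gfod2 for Cacna2d4 (0.981). For the beta genes it was Nat8l for Cacnb3 (r = 0.992), Pop1 for Cacnb1 (0.979), Vtn for Cacnb2 (0.974) and Ralgapa1 for Cacnb4 (0.958). High values were common for the GC-rich beta genes: 320 genes exceeded 0.9 with Cacnb3 and 250 with Cacnb1, against 8 with Cacna2d3. All points share library, depth and base composition, and the values are descriptive.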

How the data were processed

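Ribosome-bound RNA from 5 Dorsal and 5 Ventral pools was measured. The authors amplified it with the Ovation kit, built TruSeq libraries, sequenced paired ends of 50 bp, aligned them to GRCm38 with STAR 2.5.2b and deposited HTSeq 0.7.2 counts per gene. The annotation release and strand setting are not given in the sources used here. Groups and replicate numbers came from the sample titles. The deposited counts were neither normalized nor filtered. Rows that name no gene were left out of library sizes.

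Symbols, lengths and GC content came from GENCODE vM21, which matched 54809 of 54838 identifiers. Testing used edgeR 4.0.16 (R 4.3.3) on genes that exceeded 1 CPM in 2 or more libraries, with TMM factors, the quasi-likelihood test and Benjamini-Hochberg adjustment over every tested gene. Calls required an adjusted p below 0.05 together with a log2 ratio of group means (CPM plus 1) beyond 0.58 in either direction. SE is the log2 fold change over the square root of F. The current quasi-likelihood dispersions of edgeR (legacy = FALSE) were chosen over those of edgeR 3 after the calls of both had been seen. Offsets for GC content and length were fitted with mgcv 1.9.3. Shares and ratios used exact permutation tests. The scripts were tested on simulated data.

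Members and lists were chosen with earlier results of these data known. Named genes are all 8 members, the called genes of each partner list (the gene of highest CPM where none was called) and the gene most like each member. Calb2 was named after its values were seen. Alternatives were DESeq2 1.42.0, its size factors, total counts, no filter, edgeR's fold for the threshold, a replicate block, the offsets, protein-coding genes alone and each library left out. The edgeR 3 dispersions, coding length, and offsets for shares and ratios were added after the data were seen. The sources do not say whether equal numbers share mice, and same-numbered libraries did not deviate together, so the numbers were not taken as pairs. No 2 libraries of a group were alike within counting noise (chi-square at least 4.36 for each degree of freedom).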

Additional observations from a re-analysis of the deposited data

Results flagged for a closer look

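Within a group of 5 libraries, a library far from the other 4 by Dixon's ratio (above 0.71) was looked for in 32 groups of values, the CPM and the share of each member in each group. Chance flags about 1 in 20 such groups, and 3 were found. All 3 belong to Dorsal library 2. Its Cacna2d4 level was 2.85 CPM, against 0.0784 to 0.360 CPM in the other Dorsal libraries, and its Cacna2d4 share was 0.930%, against 0.0259 to 0.119%. Both rest on 44 counts. Its Cacnb2 share was 10.3%, against 12.3 to 12.6%, and was still above every Ventral library.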

How the results depend on the processing

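The single Dorsal-enriched member, Cacna2d2, was called under all 20 alternatives, and the number of Ventral-enriched members moved between 0 and 1 through Cacna2d4 alone. It was 1 without the expression filter, with the replicate block, with the block and offsets together, and without Dorsal library 2 or Ventral library 1, and 0 to 1 over the single libraries left out. Ventral-enriched partner genes numbered 0 with the GC and length offsets, with or without the block, and 0 to 1 without single libraries. Over all genes the offsets gave 2868 Ventral-enriched genes and the offsets with the block 2922, and protein-coding genes alone gave 1643 Dorsal-enriched genes. With edgeR 3 dispersions, an alternative added after the data were seen, 2217 and 1408 genes were called in place of 2636 and 1655.

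The offsets moved the log2 fold change of Cacna2d1 to -0.07 (-0.06 with the block) and that of Cacnb2 to -0.29 (-0.29 with the block). The median over all genes was then -0.16, so that Cacna2d1 stayed above it. They turned the share differences (Dorsal minus Ventral, percentage points) of Cacna2d1 to -5.69, Cacnb3 to 3.38 and Cacnb4 to -4.44 (exact p = 0.00794, 0.0238 and 0.0159), raised that of Cacna2d2 to 15.0 and lowered that of Cacnb2 to 0.354. The log2 ratio differences became 0.04 for Cacnb1 to Cacnb2, 0.20 for Cacnb1 to Cacnb4 (exact p = 0.0317), -0.18 for Cacnb2 to Cacnb3, 0.34 for Cacnb3 to Cacnb4 (exact p = 0.0159), 0.16 for Cacnb2 to Cacnb4 and -0.93 for Cacna2d1 to Cacna2d2. For shares and ratios the offsets were added after the data were seen. Whether the trend with GC content and length comes from the cells or from RNA recovery and amplification was not tested.

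Without division by length the share differences were 6.01 for Cacna2d2 (no longer below 0.05), -1.09 for Cacna2d4 and -1.69 for Cacnb1 (both then below 0.05). With coding length, 5.30 for Cacna2d1 and -2.67 for Cacnb1 passed. Without single libraries the range was 6.34 to 10.7 for Cacna2d2, -1.53 to -0.850 for Cacna2d4 and -2.92 to -1.48 for Cacnb1, and -0.52 to -0.21 for the log2 ratio of Cacna2d1 to Cacna2d2.

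Same-numbered Dorsal and Ventral libraries did not deviate together (mean correlation across genes 0.016, against -0.002 for different numbers), and the block gave 2656 and 1672 calls. Taken as pairs, 5 pairs cannot give an exact p below 0.0625. The share differences of 7.98 for Cacna2d2 (exact p = 0.125), -9.70 for Cacna2d3 and 3.26 for Cacnb2, and the log2 ratio differences of 0.77, 1.10, -0.79, 0.65 and 0.42 for Cacna2d1 to Cacna2d3, Cacna2d2 to Cacna2d3, Cacnb1 to Cacnb2, Cacnb2 to Cacnb3 and Cacnb2 to Cacnb4, therefore could not pass with the replicate block. Depth limits Cacna2d4, with as few as 1 count in a library.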
